A study of Homo sapiens with 32 samples.

Results

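The 10 genes described here encode E2F transcription factors (E2F1, E2F2, E2F3, E2F4, E2F5, E2F7 and E2F8) and the pocket proteins that bind them (RB1, RBL1 and RBL2). They were picked by symbol, with earlier results of these data known, and stand among 58212 distinct gene symbols. All 10 were found in each of 6 count tables, and all 10 passed the filter on low counts in each comparison within 1 line. The tables hold 32 RNA-seq libraries in 16 groups of 2, from 4 human prostate cancer cell lines. LNCaP responds to androgen, and C4-2 was derived from LNCaP as a castration-resistant subline. 22Rv1 is castration-resistant as well, while PC3 grows without androgen and lacks functional p53. One experiment set an shRNA against CSN5 (shCSN5) against a scramble shRNA in LNCaP, C4-2, 22Rv1 and PC3. The other set CSN5i-3, a chemical inhibitor of CSN5, against its solvent DMSO, at 5 µM in LNCaP, 5 µM in 22Rv1 and 10 µM in PC3. CSN5 (gene COPS5) is the enzyme within the COP9 signalosome, a complex that strips the modifier NEDD8 from cullin-RING ubiquitin ligases. The 2 pairs of C4-2 libraries in the inhibitor experiment carry opposite labels: for the libraries titled C5i the description says DMSO, and for those titled NT it says CSN5i-3, 1 µM. They are given as titled, with no statement of which pair received the inhibitor. No label says that the 2 libraries of a group came from separate cultures, so each p-value measures the spread between those libraries, which may be technical.

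E2F proteins bind the promoters of genes for DNA replication and cell cycle progression. E2F1, E2F2 and E2F3 activate them, E2F4 and E2F5 repress them together with pocket proteins, and E2F7 and E2F8 repress them without a pocket protein. The pocket proteins RB1 (pRB), RBL1 (p107) and RBL2 (p130) hold E2F proteins inactive until cyclin-dependent kinases phosphorylate them, and RBL2 is known as the pocket protein of quiescent cells. Several of these genes are known E2F targets themselves, among them E2F1, E2F2, E2F7, E2F8 and RBL1, so their RNA is known to be high in cycling cells.

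Promoter windows from RefSeq (GRCh38.p14, 250 bases before to 50 bases after an annotated start, 300 bases in all) were listed for 8 of the 10 genes, with none listed for E2F5 and E2F8. Each window was searched on both strands for 4 spellings of the E2F site, TTTCCCGC, TTTGGCGC, TTTCGCGC and TTTGCCGC, and for the CHR element TTTGAA, a cell cycle promoter element that the DREAM complex binds. Of 35116 RefSeq windows of this length, 3.315% held an E2F spelling and 15.16% held the CHR letters. An E2F spelling stood in the windows of E2F1 (2 matches), E2F2 (1 match), RBL1 (2 matches) and 1 of the 2 windows of E2F3 (1 match). The letters of the CHR element stood in that same E2F3 window and in 1 of the 2 windows of RBL2. The windows of E2F4, E2F7 and RBL2 held none of the 4 E2F spellings, which says only that these letters are not there. The starts of the 2 RBL2 windows lie 0.494 and 1.642 kb inside the gene, counted from its first base in GENCODE 29. The start of the E2F3 window without a match lies 1.708 kb inside its gene. These 3 windows are not at the first start of their genes. The one window listed for RB1 starts 172.7 kb inside the gene, counted from its first base in GENCODE 29, so it is not the window at the first start of RB1 and nothing is read from it. E2F1, E2F2 and RBL1 fell with shCSN5 in LNCaP, C4-2 and 22Rv1. E2F7, whose window held no E2F spelling, fell there too, as did E2F3 and E2F8. The spellings therefore do not separate the genes that fell from E2F7. With CSN5i-3 E2F7 rose in PC3 at 10 µM and fell in LNCaP and 22Rv1 at 5 µM. The windows of E2F1, E2F2, RBL1 and E2F7 are shown because their genes carry these main results. They lie on the minus strand at chr20:33686336-33686635 (E2F1), chr1:23531184-23531483 (E2F2), chr20:37095948-37096247 (RBL1) and chr12:77065520-77065819 (E2F7), and are written 5′ to 3′ along the gene with the E2F spellings in capitals.
E2F1: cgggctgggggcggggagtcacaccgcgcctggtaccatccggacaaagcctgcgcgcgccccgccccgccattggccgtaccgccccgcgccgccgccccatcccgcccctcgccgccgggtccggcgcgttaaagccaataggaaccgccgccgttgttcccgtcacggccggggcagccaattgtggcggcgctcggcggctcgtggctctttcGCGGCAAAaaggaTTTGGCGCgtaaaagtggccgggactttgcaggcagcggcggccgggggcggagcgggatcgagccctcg
E2F2: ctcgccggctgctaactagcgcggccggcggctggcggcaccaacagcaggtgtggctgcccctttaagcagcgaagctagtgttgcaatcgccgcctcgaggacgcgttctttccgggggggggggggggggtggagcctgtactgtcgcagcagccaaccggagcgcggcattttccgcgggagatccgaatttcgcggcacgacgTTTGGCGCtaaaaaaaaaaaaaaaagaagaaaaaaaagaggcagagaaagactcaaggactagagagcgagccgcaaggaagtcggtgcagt
RBL1: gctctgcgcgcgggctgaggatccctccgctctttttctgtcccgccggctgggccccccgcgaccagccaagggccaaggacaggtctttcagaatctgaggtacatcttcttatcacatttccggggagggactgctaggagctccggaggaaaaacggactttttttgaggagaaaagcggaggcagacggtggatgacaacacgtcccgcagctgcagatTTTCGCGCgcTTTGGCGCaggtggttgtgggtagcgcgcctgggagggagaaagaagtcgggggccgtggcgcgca
E2F7: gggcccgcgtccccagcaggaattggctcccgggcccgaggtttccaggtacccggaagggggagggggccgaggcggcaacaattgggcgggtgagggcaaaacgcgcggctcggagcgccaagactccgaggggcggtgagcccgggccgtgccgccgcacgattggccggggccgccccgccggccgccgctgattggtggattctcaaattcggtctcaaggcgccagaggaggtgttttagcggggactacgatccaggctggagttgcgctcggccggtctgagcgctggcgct
In the E2F1 window the matches began at position -33 from the start site (read on the other strand) and at -20. The E2F2 match began at -42, and the RBL1 matches began at -26 and -16. Matches of these motifs did not overlap in the windows of E2F1, E2F2, E2F3 and RBL1. A match is a description of the letters and not a measured binding site.

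The labels of the shRNA experiment held for the targeted gene. COPS5 was 2.83 and 1.79 CPM (the count scaled to the library total) in LNCaP shCSN5, against 54.1 and 53.2 CPM in LNCaP scramble, and its log2 difference was -4.50 in LNCaP, -3.56 in C4-2, -2.68 in 22Rv1 and -3.18 in PC3. The PC3 shCSN5 replicate 2, which one label calls a drug-treated cell, held 12.9 CPM of COPS5, beside 11.98 CPM in replicate 1. Summed counts per library, in units of M (mega), lay at 20.6 to 32.5 for shRNA libraries and 29.5 to 50.9 for inhibitor libraries. The 6 luminal prostate markers summed to 944 CPM or more in each library of LNCaP, C4-2 and 22Rv1 but to 11.1 to 28.8 CPM in PC3, where KLK2 was at 0 and KLK3 was at most 0.0672 CPM. Where listed, endothelial markers summed to at most 0.0427 CPM, leukocyte markers to at most 3.34 CPM and fibroblast markers to at most 57.8 CPM. For the inhibitor libraries of LNCaP and C4-2 no endothelial marker was listed, and 1 of the 3 leukocyte and 2 of the 3 fibroblast markers were. For the other libraries 1 endothelial marker was listed. All 6 luminal markers were lower with CSN5i-3 in LNCaP (median log2 difference -2.23), and 1 was higher and 5 lower in C4-2 as titled. With CSN5i-3 in 22Rv1 2 were higher and 2 lower. With shCSN5 1 was higher and 2 lower in LNCaP, 1 and 3 in C4-2 and 3 and 3 in 22Rv1. In PC3, where 3 passed the filter, 1 was higher with shCSN5 and 1 lower with CSN5i-3. Of the 3 leukocyte markers 1 passed the filter and was higher with CSN5i-3 in LNCaP, 22Rv1 and PC3 and with shCSN5 in 22Rv1 and PC3. Of the 3 fibroblast markers 1 was higher with shCSN5 in C4-2 and 2 in 22Rv1, 1 was higher with CSN5i-3 in LNCaP and 2 were lower in PC3, and 1 was higher in C4-2 as titled (log2 difference 2.42). The part of these markers in the results was not tested. In bulk RNA, fewer cells in a given state and less RNA per cell cannot be told apart, which applies to each value below.

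In the scramble libraries the 4 lines differed in the levels of these genes. RBL2 averaged 201 ± 3.34 CPM in 22Rv1, 152 ± 13.8 CPM in C4-2, 93.1 ± 3.03 CPM in LNCaP and 66.9 ± 7.56 CPM in PC3 (SD, n = 2 each). E2F1 averaged 124 ± 0.295 CPM in LNCaP, and 85.9 to 90.9 CPM in the other 3 lines. Per kilobase of exon, a scale on which genes can be compared, E2F1 stood first in each line at 34.3 (PC3), 35.4 (C4-2), 36.3 (22Rv1) and 49.3 (LNCaP) CPM per kb. E2F2 averaged 97.1 ± 7.02 CPM in 22Rv1 and 20.4 to 28.6 CPM in the other lines, and its log2 difference in level was 1.99 ± 0.13 for 22Rv1 minus C4-2 (adjusted p = 1.69e-08). RB1 averaged 146 ± 11.3 CPM in 22Rv1, 87.3 ± 11.8 in C4-2, 53.5 ± 7.43 in PC3 and 25.9 ± 0.210 in LNCaP, and each step of that order passed the test. E2F5 was highest in PC3, at 43.6 ± 5.26 CPM, then C4-2 at 22.2 ± 2.98 CPM, while 22Rv1 (13.2 ± 2.54 CPM) and LNCaP (11.5 ± 0.265 CPM) did not differ beyond their spread (adjusted p = 0.866). E2F1 did not pass the test between C4-2, 22Rv1 and PC3, with adjusted p from 0.585 to 0.925. These levels were compared by edgeR's quasi-likelihood test with Benjamini-Hochberg adjustment in 1 fit of the 16 shRNA libraries, where an adjusted p under 0.05 is a call. In the DMSO libraries of LNCaP, 22Rv1 and PC3, which come from separate tables, the order of lines was not the same for each gene. E2F1 averaged 60.0 CPM in LNCaP, 91.6 CPM in PC3 and 119 CPM in 22Rv1, with LNCaP lowest. RB1 averaged 37.9 CPM in LNCaP and 21.8 CPM in PC3, the reverse of their scramble order. For RBL2 and E2F2 22Rv1 stayed highest, and for E2F5 PC3 did. These DMSO levels were not compared by a test.

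Counts of calls between scramble groups are given beside the share of all genes called. For PC3 minus LNCaP 6 of the 10 genes were higher and 3 lower, where 74.8% of all genes tested were called. For 22Rv1 minus C4-2 there were 4 higher and 3 lower (60.9% of all genes). The other pairs had counts as follows: C4-2 minus LNCaP 7 higher and 3 lower (59.2%), 22Rv1 minus LNCaP 6 higher and 2 lower (74.6%), PC3 minus C4-2 4 higher and 2 lower (69.4%), and PC3 minus 22Rv1 4 higher and 3 lower (70.6%). Since most genes tested were called in each pair, nothing is read from these counts about the E2F and pocket protein genes. The shRNA libraries of LNCaP and PC3 came in one table and those of 22Rv1 and C4-2 in another, so differences across tables cannot be told apart from differences between the tables.

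With shCSN5 the genes of E2F1, E2F2, E2F3, E2F7, E2F8 and RBL1 fell in LNCaP, C4-2 and 22Rv1. RBL2 rose in LNCaP and C4-2. In LNCaP 1 gene was higher and 6 were lower, against 35.7% of all genes called, and the median log2 difference was -1.90 over the 10 genes and -0.01 over all genes tested. C4-2 had 1 higher and 6 lower (32% of all genes) with a median of -0.91, against -0.02 over all genes. In 22Rv1 0 were higher and 6 lower (43.9% of all genes) with a median of -0.81, against 0.02 over all genes. In PC3 1 of the 10 was called, E2F2, and it was lower, where 16.7% of all genes were called. With replicate number as a block, a pairing that no label gives, 8 of the 10 and 52.9% of all genes were called. The median of the 10 in PC3 was -0.22, against 0.04 over all genes. Leaving out a library leaves 1 in its group, so the spread comes only from the groups that keep 2. In calls gained or lost that way, here and below, this change of spread and the library itself cannot be told apart. Leaving out PC3 scramble replicate 1 gave 5 calls, leaving out scramble replicate 2 gave 3, and there were 0 without shCSN5 replicate 1 or shCSN5 replicate 2. The share of all genes called in PC3 moved in the same order, at 28.5%, 24.7%, 6.67% and 6.6% without each of these libraries. In LNCaP the share of all genes depended on single libraries as well: leaving out one of the scramble libraries gave 13.7% (replicate 1, with 5 of the 10 genes called) or 13.6% (replicate 2, with 6 called), and leaving out one of the shCSN5 libraries gave 67.9% (replicate 1, with 7 called) or 73.1% (replicate 2, with 10 called). The C4-2 share was 19.1% to 21.5% with a library left out, with 6 or 7 of the 10 called.

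With CSN5i-3 5 genes fell in both LNCaP and 22Rv1, namely E2F1, E2F2, E2F7, E2F8 and RBL1. In LNCaP 1 gene was higher and 8 lower (52.6% of all genes called; median of the 10 genes -1.01, of all genes 0.00). In 22Rv1 0 were higher and 5 lower (24% of all genes; medians -0.89 and -0.04). In PC3 5 were higher and 4 lower, where 77.1% of all genes were called, and the medians were 0.09 and -0.01. In C4-2, titled C5i minus titled NT, 2 were higher and 7 lower (74.9% of all genes; medians -1.86 and -0.01). In LNCaP, in PC3 and in C4-2 as titled most genes passed the test, so little is read from the number of calls there. PC3 had 10 µM and LNCaP and 22Rv1 had 5 µM, so line, dose and table cannot be told apart between them.

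**Figure D1:**
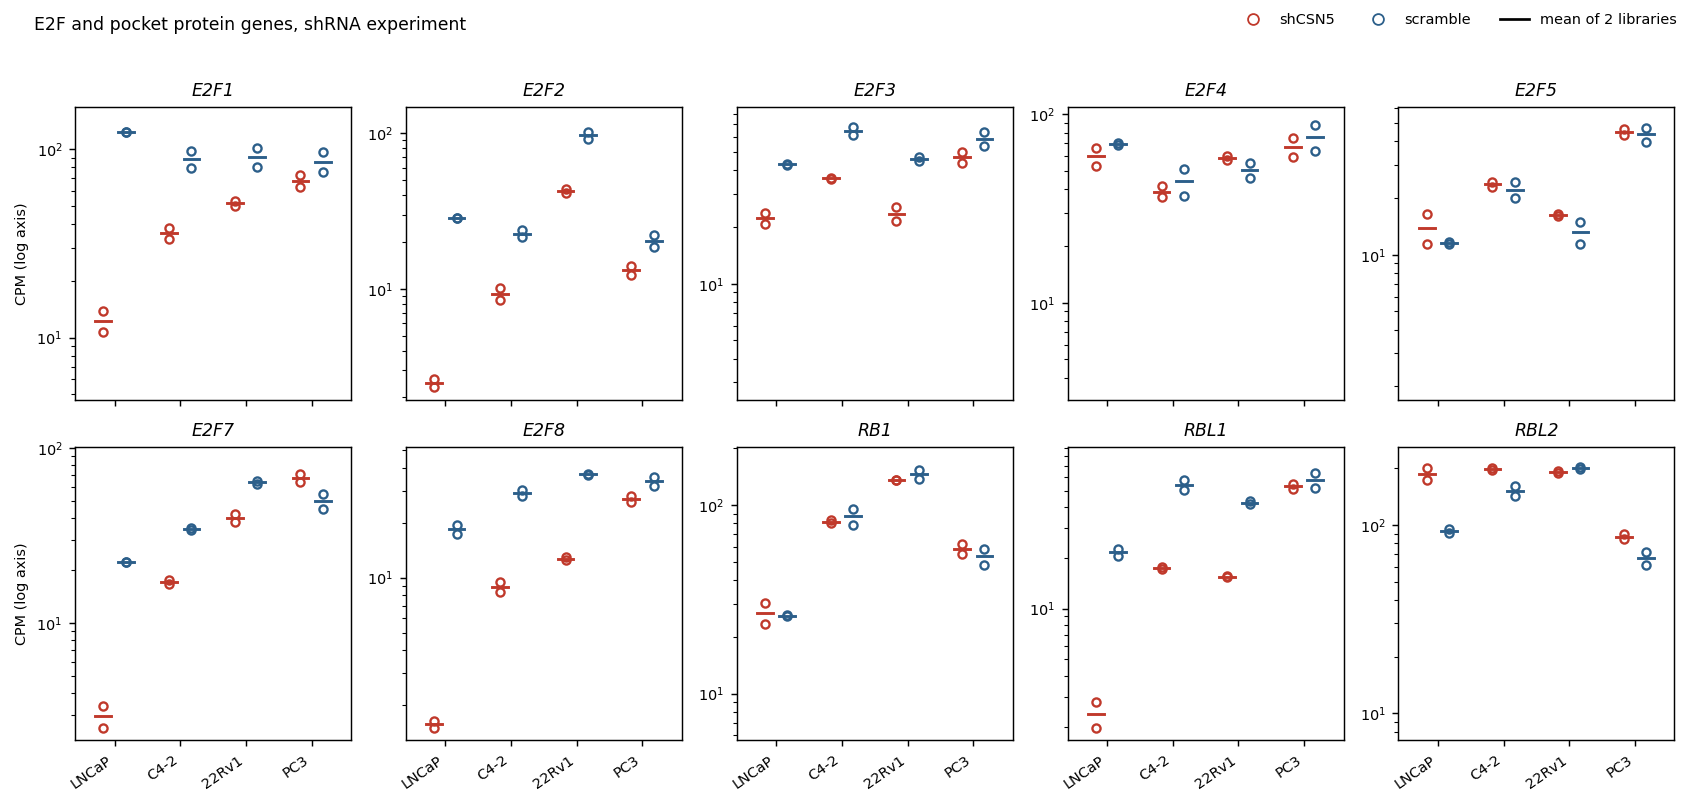
CPM (log axis) of each gene in the 16 shRNA libraries, with shCSN5 left of scramble in each line. Open circles are libraries and bars are means of 2. In LNCaP, C4-2 and 22Rv1 the shCSN5 circles of E2F1, E2F2, E2F3, E2F7, E2F8 and RBL1 lie below the scramble circles, and in PC3 the distances are smaller.

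E2F1, an activator, fell in LNCaP, C4-2 and 22Rv1 with shCSN5. In LNCaP it was 10.7 and 13.9 CPM with shCSN5, against 123 and 124 CPM with scramble, a log2 difference of -3.30 ± 0.18 (SE; adjusted p = 0.000189, edgeR). In C4-2 it was 38.4 and 33.4 CPM with shCSN5, against 79.4 and 97.6 CPM (-1.29 ± 0.13). The 22Rv1 levels were 53.2 and 49.97 CPM, against 102 and 80.0 CPM (-0.88 ± 0.11). The shCSN5 and scramble libraries did not overlap in these 3 lines. In PC3 it was 62.8 and 73.2 CPM with shCSN5, against 75.8 and 96.0 CPM with scramble, which did not pass the test (-0.41 ± 0.16, adjusted p = 0.129), but did without PC3 scramble replicate 1 (-0.58, adjusted p = 0.0015).

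With CSN5i-3 E2F1 fell in LNCaP, 22Rv1 and PC3. E2F1 was 23.3 and 22.5 CPM in PC3 with CSN5i-3, against 92.2 and 91.1 CPM with DMSO (-1.997 ± 0.04, adjusted p = 2.62e-44). In LNCaP it was 6.23 and 5.32 CPM with CSN5i-3, against 57.3 and 62.8 CPM with DMSO (-3.27 ± 0.11). In 22Rv1 it was 26.8 and 20.1 CPM, against 108 and 131 CPM (-2.34 ± 0.21). In the C4-2 pair it was 10.2 and 10.96 CPM in the libraries titled C5i, against 236 and 222 CPM in those titled NT (-4.25 ± 0.10). Every library with CSN5i-3 in LNCaP, 22Rv1 and PC3 lay below every DMSO library of its line.

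E2F2, another activator, fell in all 7 comparisons other than the C4-2 inhibitor pair. It was lower in the C4-2 libraries titled C5i than in those titled NT, a difference whose sign turns if the descriptions hold. With shCSN5 it was 2.32 and 2.65 CPM in LNCaP, against 28.7 and 28.5 CPM with scramble (-3.48 ± 0.18). The differences were -1.27 ± 0.15 in C4-2 and -1.26 ± 0.09 in 22Rv1, where shCSN5 libraries held 41.1 and 43.9 CPM, against 102 and 92.1 CPM with scramble. In PC3 E2F2 was the single call, at 12.3 and 14.1 CPM with shCSN5, against 18.7 and 22.1 CPM with scramble (-0.70 ± 0.16, adjusted p = 0.043). That call was lost without PC3 shCSN5 replicate 1 (-0.62, adjusted p = 0.234), without replicate 2 (-0.80, adjusted p = 0.110) and with scaling to total counts (-0.63, adjusted p = 0.0505).

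With CSN5i-3 the lowest E2F2 levels rested on few counts. In PC3 it had 9 counts in each CSN5i-3 library, or 0.193 and 0.221 CPM, against 2.63 and 2.57 CPM with DMSO (-3.64 ± 0.28). In LNCaP it was 0.678 and 0.754 CPM with CSN5i-3, against 9.31 and 9.30 CPM with DMSO (-3.58 ± 0.15). The 22Rv1 levels were 29.9 and 26.1 CPM, against 101 and 109 CPM (-1.90 ± 0.16). In C4-2 the libraries titled C5i held 1.65 and 1.56 CPM, against 46.8 and 44.9 CPM in those titled NT (-4.64 ± 0.13). The level of E2F2 in the PC3 controls itself differed by experiment, at 2.63 and 2.57 CPM in DMSO libraries and 18.7 and 22.1 CPM in scramble libraries, which come from separate tables.

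E2F3, the remaining activator, fell with shCSN5 in LNCaP, C4-2 and 22Rv1. With shCSN5 it was 23.7 and 20.7 CPM in LNCaP, against 42.7 and 43.4 CPM with scramble (-0.92 ± 0.16, adjusted p = 0.00753). It fell by 0.83 ± 0.12 on the log2 scale in C4-2 and by 1.03 ± 0.12 in 22Rv1, and did not pass the test in PC3 (-0.40 ± 0.13, adjusted p = 0.0963). The LNCaP call was lost without scramble replicate 1 (adjusted p = 0.130) and without scramble replicate 2 (adjusted p = 0.152), and in PC3 E2F3 passed without scramble replicate 2 (-0.56, adjusted p = 0.00421). With CSN5i-3 E2F3 fell by 0.44 ± 0.10 in LNCaP, a call lost without CSN5i-3 replicate 2 (-0.37, adjusted p = 0.0836). It did not pass in 22Rv1 (-0.40 ± 0.17, adjusted p = 0.145) or in PC3 (-0.10 ± 0.05, adjusted p = 0.0628), though it passed without PC3 CSN5i-3 replicate 1 (-0.13, adjusted p = 0.0446). In C4-2 it was 26.8 and 25.6 CPM in the libraries titled C5i, against 46.5 and 49.4 CPM in those titled NT (-0.68 ± 0.09).

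E2F7, an atypical repressor, fell with shCSN5 in LNCaP, C4-2 and 22Rv1. It fell to 3.36 and 2.54 CPM in LNCaP shCSN5, against 22.2 and 22.4 CPM with scramble (-2.88 ± 0.21). It was 16.9 and 17.7 CPM in C4-2 shCSN5, against 34.0 and 34.9 CPM in scramble (-0.98 ± 0.12), and 37.6 and 41.8 CPM in 22Rv1 shCSN5, against 62.4 and 64.6 CPM (-0.74 ± 0.10). In PC3 both shCSN5 libraries, at 71.2 and 64.1 CPM, lay above both scramble libraries, at 54.5 and 44.7 CPM, but the difference of 0.38 ± 0.13 did not pass the test (adjusted p = 0.106). It passed without PC3 scramble replicate 1 (0.51, adjusted p = 0.0134).

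With CSN5i-3 E2F7 rose in PC3, at 10 µM, and fell in LNCaP and 22Rv1, at 5 µM. Line, dose and table cannot be told apart here. In PC3 it was 173 and 174 CPM with CSN5i-3, against 50.4 and 52.5 CPM with DMSO, a log2 difference of 1.75 ± 0.03 (adjusted p = 5.5e-47). It was the largest increase of the 10 genes in that comparison. Per kilobase of exon E2F7 had rank 2 among the 10 genes in PC3 with CSN5i-3, at 27.5 CPM per kb, and rank 3 with DMSO, at 8.17 CPM per kb. In LNCaP it was 1.86 and 1.53 CPM with CSN5i-3, against 9.18 and 8.64 CPM (-2.29 ± 0.15), and in 22Rv1 17.6 and 20.6 CPM, against 58.1 and 54.3 CPM (-1.56 ± 0.17). In C4-2 the libraries titled C5i held 4.33 and 4.04 CPM, against 32.0 and 33.9 CPM in those titled NT (-2.78 ± 0.11).

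E2F8, the other atypical repressor, fell in LNCaP, C4-2 and 22Rv1 with shCSN5. With shCSN5 it was 1.502 and 1.65 CPM in LNCaP, against 17.4 and 19.4 CPM with scramble (-3.51 ± 0.19). The differences were -1.70 ± 0.15 in C4-2 and -1.60 ± 0.11 in 22Rv1. In PC3 it was 28.1 and 26.1 CPM with shCSN5, against 35.7 and 31.7 CPM, which did not pass (-0.39 ± 0.13, adjusted p = 0.0895) but did without scramble replicate 2 (-0.51, adjusted p = 0.0252).

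With CSN5i-3 E2F8 had 7 and 10 counts in LNCaP, or 0.176 and 0.229 CPM, against 6.10 and 5.49 CPM with DMSO (-4.70 ± 0.22). In 22Rv1 it was 7.87 and 6.22 CPM, against 41.2 and 39.9 CPM (-2.52 ± 0.21). In PC3 it was 0.599 and 0.787 CPM, from 28 and 32 counts, against 4.38 and 3.84 CPM (-2.57 ± 0.20). E2F8 fell in the PC3 libraries in which E2F7 rose. In C4-2 the libraries titled C5i held 6 and 9 counts, 0.187 and 0.305 CPM, against 24.7 and 26.6 CPM in those titled NT (-6.50 ± 0.20). The reference annotation places the antisense gene AC009652.2 across the span of E2F8, introns included. The strand counted is not given in the sources used here, so reads from any shared exon bases could not be told apart. Whether exons overlap was not tested. Other genes also lie across the spans of RBL1 (among them AL136172.1 and RPS3AP3) and E2F3 (among them E2F3-IT1).

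E2F4, a repressor that works with pocket proteins, passed in no shRNA comparison. Its log2 differences with shCSN5 ran from -0.25 ± 0.20 in PC3 to 0.15 ± 0.10 in 22Rv1, with adjusted p from 0.226 to 0.476. The difference was -0.32 without LNCaP shCSN5 replicate 2, 0.25 without 22Rv1 scramble replicate 1 and -0.47 without PC3 scramble replicate 1. With CSN5i-3 it rose in LNCaP, where it was 79.1 and 75.3 CPM, against 59.7 and 63.8 CPM with DMSO (0.43 ± 0.08, adjusted p = 0.00288), a call lost without CSN5i-3 replicate 1 (0.38, adjusted p = 0.0598). It also rose in PC3, at 96.6 and 106 CPM with CSN5i-3, against 76.5 and 77.2 CPM with DMSO (0.40 ± 0.04). In 22Rv1 the libraries overlapped (-0.11 ± 0.24, adjusted p = 0.770). The C4-2 pair did not pass (-0.15 ± 0.08, adjusted p = 0.122), but passed with scaling to total counts (-0.35, adjusted p = 0.00287) and without titled NT replicate 2 (-0.24, adjusted p = 0.00664). E2F4 was the first of the 10 genes per kilobase in LNCaP with CSN5i-3, at 21.5 CPM per kb, and in PC3 with CSN5i-3, at 28.3 CPM per kb.

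E2F5, the other pocket-bound repressor, also passed in no shRNA comparison. Its differences ran from -0.03 ± 0.13 in PC3 to 0.31 ± 0.22 in LNCaP, with adjusted p from 0.260 to 0.880. The difference was 0.57 without LNCaP shCSN5 replicate 2 and 0.47 without 22Rv1 scramble replicate 2. With CSN5i-3 it fell in LNCaP, at 11.5 and 10.9 CPM, against 18.5 and 14.99 CPM with DMSO (-0.47 ± 0.12, adjusted p = 0.014), a call lost without CSN5i-3 replicate 2 (-0.44, adjusted p = 0.081). In PC3 it rose to 36.2 and 33.7 CPM with CSN5i-3, where DMSO libraries held 27.6 and 30.5 CPM (0.27 ± 0.05, adjusted p = 3.21e-06). The 22Rv1 levels were 14.5 and 19.5 CPM with CSN5i-3, against 13.2 and 11.2 CPM, which did not pass (0.47 ± 0.22, adjusted p = 0.171) but did without CSN5i-3 replicate 1 (0.71, adjusted p = 0.0275). In C4-2 the pair titled C5i was above the pair titled NT (0.37 ± 0.13, adjusted p = 0.0221), a call lost with total counts (0.18, adjusted p = 0.244), with DESeq2 (0.38, adjusted p = 0.0911) and without titled C5i replicate 1 (0.28, adjusted p = 0.184). E2F5 overlaps C8orf59 on the other strand in the reference annotation, so its counts are uncertain in the same way as those of E2F8.

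**Figure D2:**
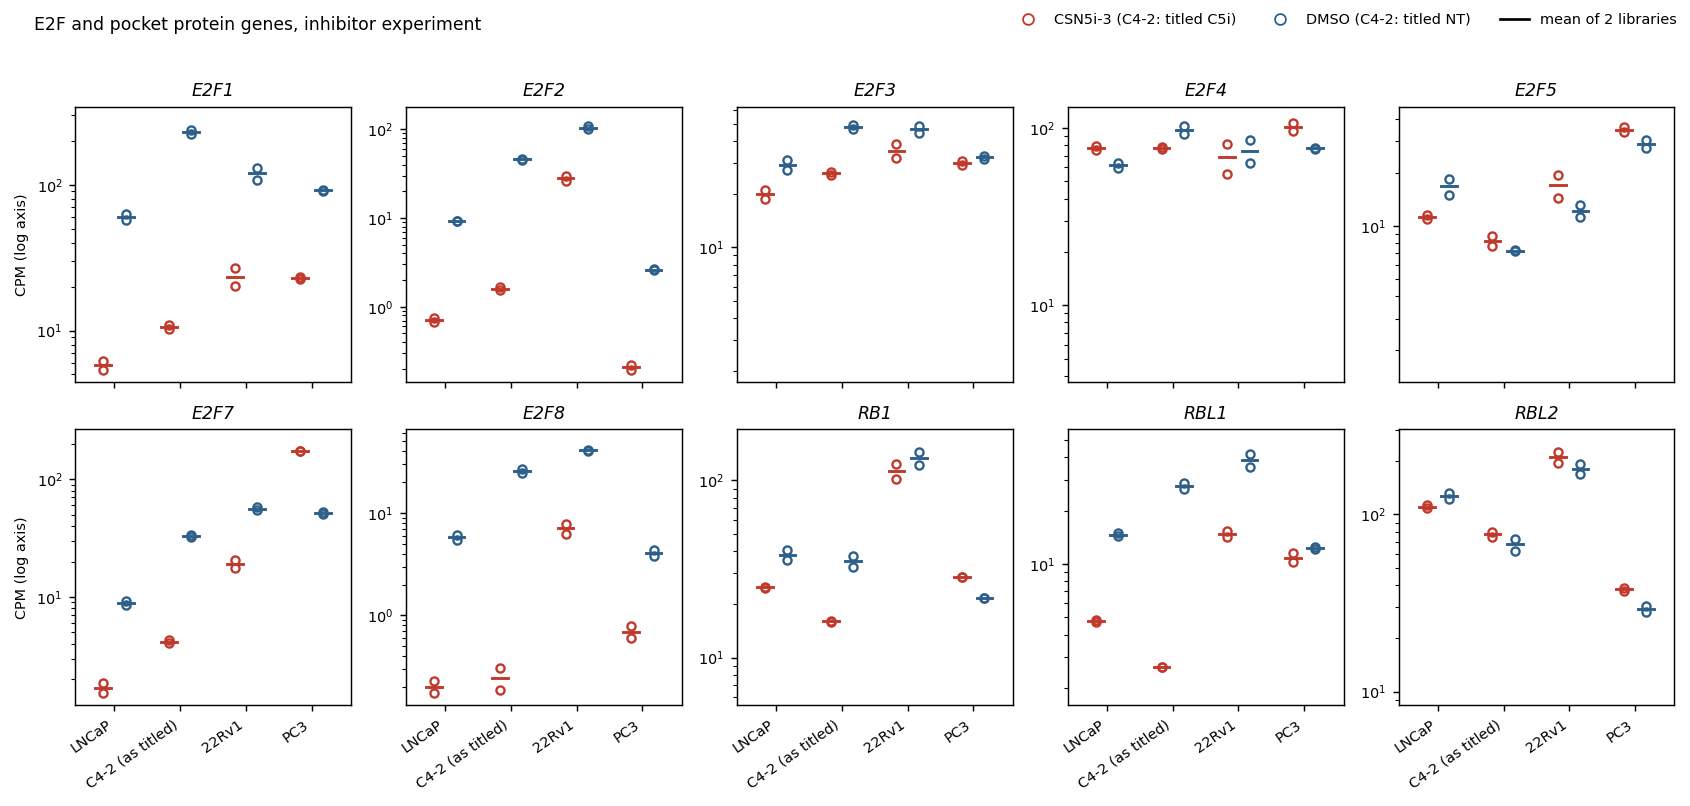
CPM (log axis) of each gene in the 16 inhibitor libraries, with CSN5i-3 left of DMSO, or titled C5i left of titled NT for C4-2. Open circles are libraries and bars are means of 2. E2F7 in PC3 lies at 173 and 174 CPM with CSN5i-3, above DMSO, while E2F1, E2F2 and E2F8 lie below DMSO in the same libraries.

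RB1, the pocket protein that binds the activators, passed in no shRNA comparison. Its differences with shCSN5 ran from -0.17 ± 0.09 in 22Rv1 to 0.09 ± 0.19 in LNCaP, with adjusted p from 0.125 to 0.795. With a library left out the LNCaP difference ran from -0.118 to 0.289, so its sign changed. Without 22Rv1 scramble replicate 1 the difference was -0.28. In LNCaP it was 30.4 and 23.4 CPM with shCSN5, around the 26.04 and 25.7 CPM of scramble. With CSN5i-3 it fell in LNCaP, at 24.7 and 25.05 CPM, against 40.3 and 35.4 CPM with DMSO (-0.50 ± 0.09, adjusted p = 0.00277). It rose in PC3, at 28.4 and 28.4 CPM with CSN5i-3, against 21.8 and 21.8 CPM (0.38 ± 0.05, adjusted p = 4.88e-09). In 22Rv1 the libraries overlapped (-0.25 ± 0.17, adjusted p = 0.315). In C4-2 it was 16.1 and 15.9 CPM in the libraries titled C5i, against 32.5 and 37.3 CPM in those titled NT (-0.93 ± 0.10). LPAR6 and RCBTB2 overlap the span of RB1 on the other strand, and whether part of its counts is theirs was not tested.

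RBL1 (p107) fell with shCSN5 in LNCaP, C4-2 and 22Rv1. With shCSN5 it was 2.79 and 1.97 CPM in LNCaP, against 22.6 and 20.5 CPM with scramble (-3.14 ± 0.23). It was 17.6 and 17.1 CPM in C4-2 shCSN5, against 58.1 and 50.7 CPM (-1.64 ± 0.13), and 15.3 and 15.7 CPM in 22Rv1 shCSN5, against 41.8 and 43.4 CPM (-1.52 ± 0.11). The PC3 libraries overlapped, at 54.9 and 51.3 CPM with shCSN5 and 63.5 and 51.7 CPM with scramble (-0.19 ± 0.13, adjusted p = 0.359).

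With CSN5i-3 RBL1 was 4.82 and 4.71 CPM in LNCaP, against 14.9 and 14.5 CPM with DMSO (-1.51 ± 0.10). In 22Rv1 it was 14.2 and 15.3 CPM, against 41.7 and 35.3 CPM (-1.38 ± 0.19). In PC3 it was 11.5 and 10.2 CPM, against 12.4 and 12.1 CPM, a call of small size (-0.17 ± 0.08, adjusted p = 0.0402). That call was lost with DESeq2 (adjusted p = 0.192), without the low-count filter (adjusted p = 0.113), without DMSO replicate 1 (-0.15, adjusted p = 0.159), without DMSO replicate 2 (-0.19, adjusted p = 0.0575) and without CSN5i-3 replicate 2 (-0.08, adjusted p = 0.409). In C4-2 it was 2.61 and 2.61 CPM in the libraries titled C5i, against 26.6 and 28.7 CPM in those titled NT (-3.21 ± 0.13).

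RBL2 (p130) was the one pocket protein gene that rose with shCSN5. In LNCaP it was 201 and 173 CPM with shCSN5, against 91.0 and 95.3 CPM with scramble (1.04 ± 0.14, adjusted p = 0.00306), a call lost without scramble replicate 1 (1.002, adjusted p = 0.0615). In C4-2 it was 195 and 201 CPM with shCSN5, against 161 and 142 CPM (0.39 ± 0.11, adjusted p = 0.0259). The C4-2 call was lost without the low-count filter (0.40, adjusted p = 0.0704), without scramble replicate 2 (0.28, adjusted p = 0.0598), without shCSN5 replicate 1 (0.42, adjusted p = 0.094) and without shCSN5 replicate 2 (0.34, adjusted p = 0.213). The 22Rv1 levels were 188 and 193 CPM with shCSN5, against 198 and 203 CPM (-0.14 ± 0.07, adjusted p = 0.156), and it was called lower without 22Rv1 scramble replicate 1 (-0.19, adjusted p = 0.0192). In PC3 it was 89.1 and 84.0 CPM with shCSN5, above the 72.3 and 61.6 CPM of scramble, without passing (0.30 ± 0.11, adjusted p = 0.124), and it passed without scramble replicate 1 (0.41, adjusted p = 0.0433).

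With CSN5i-3 RBL2 did not pass in LNCaP, where it was 108 and 113 CPM, against 131 and 122 CPM with DMSO (-0.09 ± 0.07, adjusted p = 0.329), although it was called lower without DMSO replicate 2 (-0.13, adjusted p = 0.0257). It did not pass in 22Rv1 (0.21 ± 0.15, adjusted p = 0.338). In PC3 it rose to 37.1 and 38.6 CPM with CSN5i-3, where DMSO libraries held 28.2 and 30.5 CPM (0.37 ± 0.05, adjusted p = 1.54e-09). In C4-2 it was 80.0 and 74.3 CPM in the libraries titled C5i, against 62.5 and 72.8 CPM in those titled NT (0.38 ± 0.09), a call lost with total counts (0.19, adjusted p = 0.0948). Per kilobase of exon RBL2 stood first of the 10 genes in LNCaP shCSN5, at 25.5 CPM per kb, where E2F1 stood at 4.90 CPM per kb. AKTIP overlaps RBL2 on the other strand in the reference annotation.

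**Figure D3:**
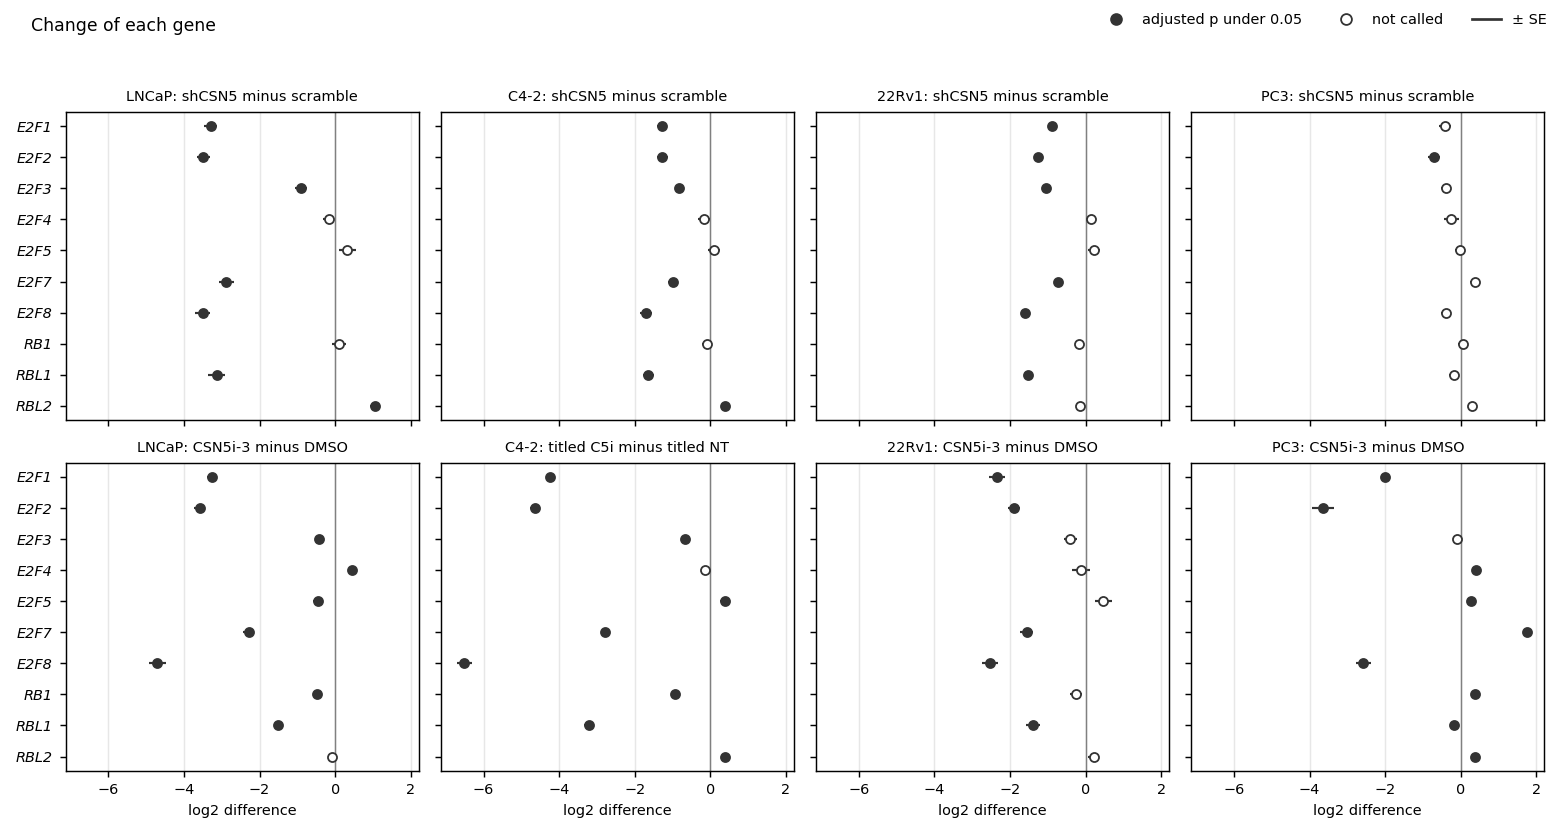
Log2 difference of each gene (treated minus control, or titled C5i minus titled NT) with its SE, in 8 comparisons of 4 libraries each. Filled points passed an adjusted p under 0.05 in edgeR. E2F1, E2F2, E2F7, E2F8 and RBL1 lie left of 0 in both rows for LNCaP, C4-2 and 22Rv1, and in PC3 with CSN5i-3 E2F7 lies at 1.75 while E2F1, E2F2 and E2F8 lie at -1.997, -3.64 and -2.57.

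The response to shCSN5 differed between PC3 and LNCaP, the 2 lines that share a table. For PC3 minus LNCaP the difference of log2 changes was 2.82 ± 0.24 for E2F1, 2.72 ± 0.22 for E2F2, 3.20 ± 0.23 for E2F7, 3.06 ± 0.21 for E2F8 and 2.89 ± 0.25 for RBL1, with adjusted p from 6.66e-05 to 0.000205. RBL2 went the other way, at -0.80 ± 0.17 (adjusted p = 0.011). Its call was lost without LNCaP scramble replicate 1 (-0.77, adjusted p = 0.0689), LNCaP scramble replicate 2 (-0.84, adjusted p = 0.0538), PC3 shCSN5 replicate 1 (-0.74, adjusted p = 0.0512) or PC3 shCSN5 replicate 2 (-0.62, adjusted p = 0.0837). Of the 10 genes 5 were called higher and 1 lower for PC3 minus LNCaP, against 24.1% of all genes called. Between 22Rv1 and C4-2, which share the other table, 1 of the 10 genes differed, against 13.3% of all genes. That gene was RBL2, at -0.56 ± 0.10 for 22Rv1 minus C4-2 (adjusted p = 0.0083), which missed the threshold without 22Rv1 shCSN5 replicate 1 (-0.53, adjusted p = 0.0511).

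The knockdown itself also differed in size between lines. For COPS5 the difference between log2 changes was 1.25 ± 0.25 for PC3 minus LNCaP (adjusted p = 0.00941) and 0.86 ± 0.13 for 22Rv1 minus C4-2 (adjusted p = 0.00324), so COPS5 fell less in PC3 than in LNCaP and less in 22Rv1 than in C4-2. COPS5 stood at 11.98 and 12.9 CPM in PC3 shCSN5, at 10.4 and 10.3 CPM in C4-2 shCSN5 and at 17.6 and 16.8 CPM in 22Rv1 shCSN5. The part of that in the E2F differences was not tested.

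CSN5i-3 at 5 µM was compared between LNCaP and 22Rv1, which come in separate tables. For LNCaP minus 22Rv1, 5 of 9 genes with 1 row in both tables were lower and 0 higher, against 15.6% of all genes called. The differences were -0.96 ± 0.24 for E2F1, -1.72 ± 0.19 for E2F2, -0.98 ± 0.25 for E2F5, -0.76 ± 0.19 for E2F7 and -2.22 ± 0.29 for E2F8. The calls of E2F2 and E2F8 held with each library left out in turn. Those of E2F1, E2F5 and E2F7 were lost for most libraries left out, with adjusted p up to 0.155, 0.156 and 0.183. RBL1 has a second Ensembl identifier in the Ensembl tables, with 0 to 16 counts per library, and was compared after summing the 2, an alternative chosen after seeing the data (-0.16 ± 0.17, adjusted p = 0.605).

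CSN5i-3 and shCSN5 were set against each other within a line, where control, table and experiment differ as well. In LNCaP 2 of 9 genes were lower with CSN5i-3 than with shCSN5 relative to their own controls and 0 higher, against 21.3% of all genes. RBL2 differed by -1.22 ± 0.16 (adjusted p = 0.00182); it rose with shCSN5 and did not pass with CSN5i-3. This call held with each library left out. E2F8 differed by -1.29 ± 0.28 (adjusted p = 0.0151), a call lost with DESeq2 (adjusted p = 0.0530) and without scramble replicate 1, DMSO replicate 1 or either CSN5i-3 replicate (adjusted p from 0.054 to 0.101). RBL1, with its identifiers summed, fell less with CSN5i-3 (1.54 ± 0.25, adjusted p = 0.00416). The count of calls in LNCaP was 7 without shCSN5 replicate 1 and 5 without shCSN5 replicate 2, and 1 without scramble replicate 1, DMSO replicate 1 or either CSN5i-3 replicate. The share of all genes called was 28.5% without shCSN5 replicate 1 and 41.8% without shCSN5 replicate 2, and lay between 7.99% and 10.9% for the other 4 libraries.

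In 22Rv1 3 of 10 genes were lower with CSN5i-3 than with shCSN5 and 0 higher, against 4.28% of all genes. They were E2F1 (-1.46 ± 0.24, adjusted p = 0.0207), E2F7 (-0.80 ± 0.18, adjusted p = 0.049) and E2F8 (-0.92 ± 0.18, adjusted p = 0.0377). Each of the 3 lost its call without scramble replicate 1, scramble replicate 2, shCSN5 replicate 1, shCSN5 replicate 2 or DMSO replicate 2. In those 5 fits 0.238% to 1.61% of all genes were called. There was 1 call without DMSO replicate 1 (1.88% of all genes) and there were 6 without CSN5i-3 replicate 1 (8.77% of all genes).

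In PC3 2 genes were higher and 3 lower with CSN5i-3 than with shCSN5, against 39.1% of all genes. E2F7 was higher by 1.45 ± 0.15 (adjusted p = 0.000282), and E2F1 (-1.52 ± 0.17), E2F2 (-2.87 ± 0.28) and E2F8 (-2.12 ± 0.21) were lower, and these 4 calls held with each library left out. E2F4 was higher by 0.72 ± 0.23 (adjusted p = 0.0367), a call lost with total counts (0.58, adjusted p = 0.0772) and without shCSN5 replicate 1 or any DMSO or CSN5i-3 library (adjusted p from 0.0918 to 0.143). Without PC3 scramble replicate 2 there were 8 calls (46.1% of all genes). The PC3 control libraries of the 2 experiments differed widely in these genes. E2F8 was 4.38 and 3.84 CPM in DMSO libraries and 35.7 and 31.7 CPM in scramble libraries, and RBL1 was 12.4 and 12.1 CPM in DMSO libraries and 63.5 and 51.7 CPM in scramble libraries. The part of this in the differences was not tested.

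**Figure D4:**
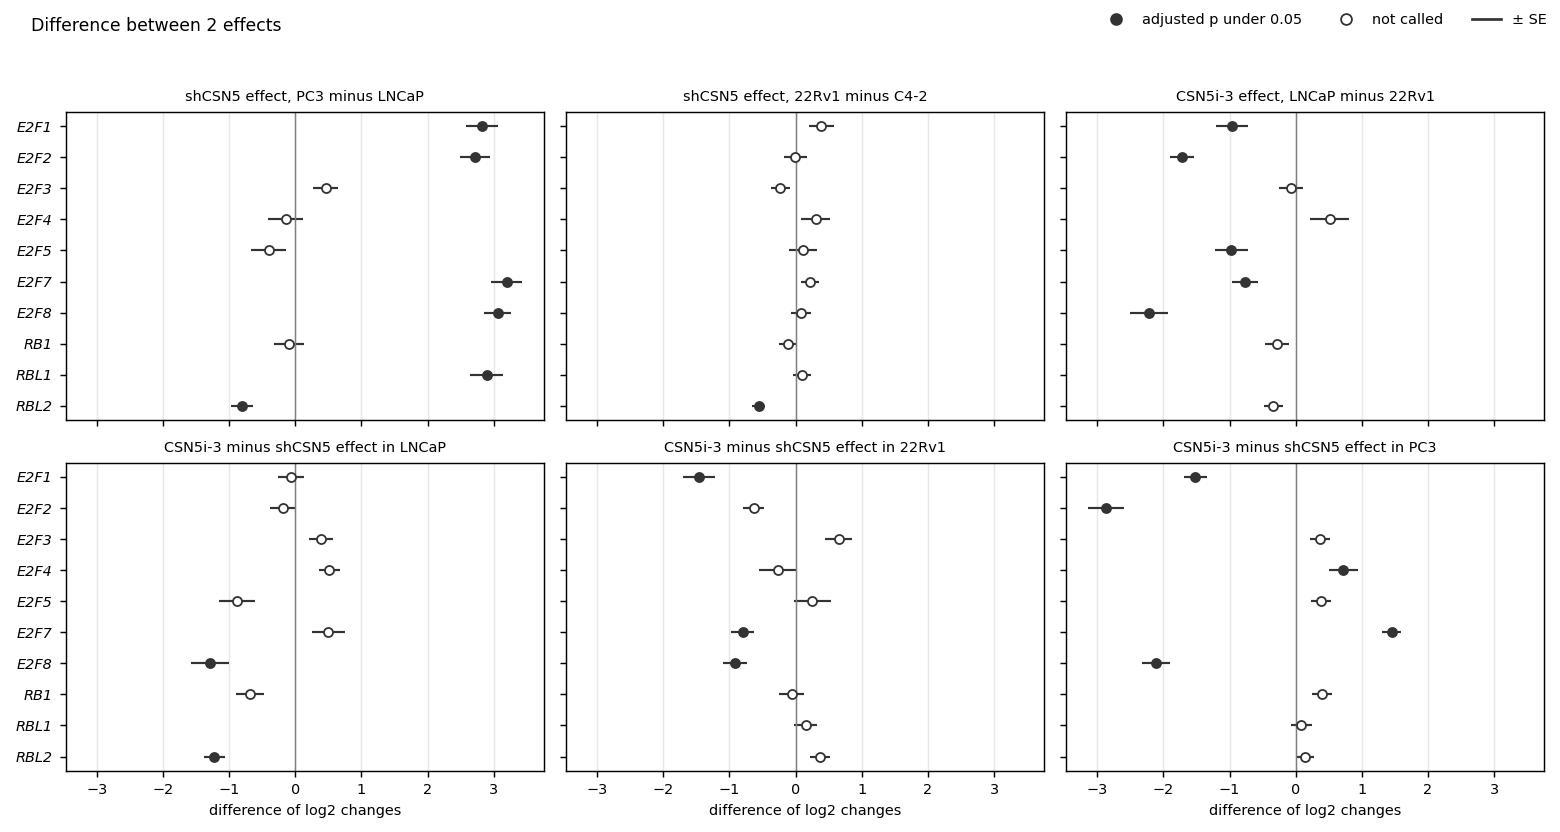
Differences between 2 log2 changes with their SE, for lines (shCSN5 in PC3 minus LNCaP, shCSN5 in 22Rv1 minus C4-2, CSN5i-3 in LNCaP minus 22Rv1) and for CSN5i-3 minus shCSN5 within LNCaP, 22Rv1 and PC3. Filled points passed an adjusted p under 0.05. E2F1, E2F2, E2F7, E2F8 and RBL1 lie between 2.72 and 3.20 for PC3 minus LNCaP, and RBL1 has no point in the 2 panels that join a table of symbols with one of Ensembl identifiers (CSN5i-3 in LNCaP minus 22Rv1, and CSN5i-3 minus shCSN5 in LNCaP).

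E2F target genes were a list of 25 replication and cell cycle genes from textbook knowledge, chosen with earlier results of these data known. They were mostly lower in the 7 comparisons other than the C4-2 inhibitor pair. They were lower too in C4-2 as titled, where the direction turns if the descriptions hold. The counts of this and the following lists stand beside the shares of all genes called given above, which were 16.7% to 43.9% with shCSN5, 24% to 77.1% with CSN5i-3 and 74.9% in C4-2 as titled. With shCSN5 0 were higher and 23 lower in LNCaP (median log2 difference -2.58), 0 and 24 in C4-2 (-1.57), 1 and 24 in 22Rv1 (-1.21) and 0 and 16 in PC3 (-0.73). With CSN5i-3 there were 0 higher and 24 lower in LNCaP (-2.30), 0 and 24 in 22Rv1 (-1.98) and 2 and 23 in PC3 (-0.99), and in C4-2 as titled 0 and 25 (-3.51). The medians of all genes lay between -0.04 and 0.04. In PC3, where shCSN5 left 9 of the 10 E2F and pocket protein genes uncalled, PCNA, the clamp of DNA polymerase, fell by 1.28 ± 0.09 and MCM4, a subunit of the replicative helicase, by 1.02 ± 0.09. In LNCaP shCSN5 CCNA2 (cyclin A2) fell by 3.89 ± 0.17 and with CSN5i-3 RRM2, a subunit of ribonucleotide reductase, fell by 5.55 ± 0.10. CCNE1 (cyclin E1) went the other way in 2 comparisons, higher in 22Rv1 shCSN5 (0.46 ± 0.14, adjusted p = 0.0220) and in PC3 CSN5i-3 (0.25 ± 0.09, adjusted p = 0.0107). EZH2, a histone methyltransferase gene, was the other target higher in PC3 with CSN5i-3 (0.58 ± 0.05); it and CCNE1 were picked out after their values were seen.

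The dimerisation partner TFDP1 (DP1), with which E2F1 to E2F5 bind DNA, was called lower in each line with shCSN5 and in LNCaP, 22Rv1 and PC3 with CSN5i-3, and in C4-2 as titled. Its log2 difference with shCSN5 was -0.57 ± 0.13 in LNCaP, -0.45 ± 0.09 in C4-2, -0.38 ± 0.07 in 22Rv1 and -0.42 ± 0.10 in PC3 (adjusted p = 0.0397). With CSN5i-3 it was -1.36 ± 0.08 in LNCaP, -0.81 ± 0.13 in 22Rv1 and -0.90 ± 0.04 in PC3, and in C4-2 as titled -2.42 ± 0.09. E2F6, a repressor without a pocket protein partner, rose in LNCaP with shCSN5 (0.84 ± 0.17) and with CSN5i-3 (0.39 ± 0.09), and in PC3 with CSN5i-3 (0.51 ± 0.06). Of the 3 partner genes (TFDP1, TFDP2 and E2F6) 1 was higher and 1 lower with shCSN5 in LNCaP, 0 and 2 in C4-2, 0 and 2 in 22Rv1 and 0 and 1 in PC3. With CSN5i-3 there were 1 and 2 in LNCaP, 0 and 1 in 22Rv1 and 1 and 2 in PC3, and 1 and 1 in C4-2 as titled. Of the 5 MuvB core genes, whose products form the DREAM complex with E2F4 and RBL1 or RBL2, 0 were higher and 2 lower with shCSN5 in LNCaP and in C4-2, 1 and 4 in 22Rv1 and 0 and 0 in PC3. LIN9 fell by 1.75 ± 0.20 in LNCaP and by 1.14 ± 0.13 in C4-2. With CSN5i-3 the counts were 1 higher and 3 lower in LNCaP, 0 and 3 in 22Rv1 and 3 and 2 in PC3, where 77.1% of all genes were called and LIN37 (1.22 ± 0.08) and LIN52 (0.83 ± 0.06) rose, and 1 and 4 in C4-2 as titled.

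The kinases that phosphorylate pocket proteins and their inhibitors moved as follows. Of 7 of the 8 G1 cyclin and kinase genes tested, 0 were higher and 3 lower with shCSN5 in LNCaP, 0 and 4 in C4-2, 1 and 5 in 22Rv1 and 0 and 3 in PC3. With CSN5i-3 there were 0 higher and 5 lower in LNCaP, 0 and 4 in 22Rv1 and 2 and 5 in PC3, where 77.1% of all genes were called and CCND1 (cyclin D1) fell by 1.75 ± 0.03, and 0 and 6 in C4-2 as titled. CDK2, the partner of cyclin E, fell with shCSN5 in LNCaP (-1.25 ± 0.14), C4-2 (-1.05 ± 0.11), 22Rv1 (-0.63 ± 0.07) and PC3 (-0.50 ± 0.10). Of the 7 inhibitor genes, 3 were higher and 1 lower with shCSN5 in LNCaP, 2 and 1 in C4-2, 3 and 2 in 22Rv1 and 1 and 1 in PC3. With CSN5i-3 the counts were 3 and 2 in LNCaP, 3 and 2 in 22Rv1 and 3 and 3 in PC3, and 5 and 2 in C4-2 as titled. CDKN1A (p21), a p53 target, rose by 2.59 ± 0.13 in LNCaP, 2.67 ± 0.11 in C4-2 and 1.04 ± 0.08 in 22Rv1 with shCSN5, and in PC3 its difference was 0.68 ± 0.17 (adjusted p = 0.0503). With CSN5i-3 it rose by 3.52 ± 0.07 in LNCaP, 3.11 ± 0.18 in 22Rv1 and 0.72 ± 0.03 in PC3. CDKN2B (p15), an inhibitor of CDK4 and CDK6, rose with shCSN5 by 2.96 ± 0.21 in LNCaP, 1.90 ± 0.18 in C4-2, 0.98 ± 0.16 in 22Rv1 and 1.83 ± 0.10 in PC3. With CSN5i-3 it rose by 2.58 ± 0.15 in LNCaP and 1.55 ± 0.19 in 22Rv1, and in PC3 it fell by 0.39 ± 0.03. CDKN2C (p18), another inhibitor of CDK4 and CDK6 and a known E2F target, fell with shCSN5 by 1.78 ± 0.16 in LNCaP, 1.23 ± 0.14 in C4-2, 1.17 ± 0.10 in 22Rv1 and 0.82 ± 0.13 in PC3.

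Of 6 genes for parts of the ubiquitin ligases that degrade cell cycle proteins, 2 were higher and 2 lower with shCSN5 in LNCaP, 0 and 2 in C4-2, 0 and 2 in 22Rv1 and 0 and 2 in PC3. With CSN5i-3 the counts were 1 higher and 2 lower in LNCaP, 0 and 2 in 22Rv1 and 1 and 5 in PC3, and 2 and 4 in C4-2 as titled. SKP2, a substrate receptor of the SCF ligase, fell by 1.302 ± 0.16 in LNCaP, 1.03 ± 0.12 in C4-2, 0.69 ± 0.08 in 22Rv1 and 0.58 ± 0.11 in PC3 with shCSN5. CCNF (cyclin F), another such receptor, fell by 1.41 ± 0.17 in LNCaP, 0.75 ± 0.13 in C4-2 and 0.94 ± 0.11 in 22Rv1.

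Across the 16 shRNA libraries, with each gene's log2 values centred within each line, E2F1, E2F2, E2F7, E2F8 and RBL1 varied together. Their pairwise Pearson r ran from 0.93 (E2F2 with E2F7) to 0.99 (E2F8 with RBL1). RBL2 ran against them, from -0.79 with RBL1 and E2F7 to -0.92 with E2F1, and RB1 lay between -0.11 and 0.19 with these 5 genes. These values describe shared variation in 16 libraries of 8 groups that share treatment and depth. The genes most like E2F1 among 11417 genes compared were KIFC1, TROAP and KIF18B, each with r above 0.99. Those most like E2F2 were PLK1, ESPL1 and CDCA3, those most like E2F8 were WDR76, CHAF1B and CDC25C, and those most like RBL1 were NUF2, IL17RB and NCAPG2. PHIP, CASP8AP2 and RAB11FIP2 were most like E2F7, and RBMX, NDC1 and DHX33 most like E2F3. RBL2 was most like STK39, PCNX and LACTB2 (0.98 to 0.99). For E2F4 (NCKIPSD, KIAA2013 and SCAMP3), E2F5 (CYB5R4, TMX2 and CAPZA1) and RB1 (ACTR2, ZMYND11 and STT3B) the values ran from 0.94 to 0.97.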

How the data were processed

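RNA from 32 libraries was measured by RNA-seq. Per the labels, cells came from ATCC and total RNA was extracted with Direct-Zol, and per the submitters' processing notes Partek was used. For the aligner, genome build, annotation and strand setting, the sources used here give nothing. The values are whole-number read counts per gene, as the authors deposited them, in 6 tables, of which 4 list Ensembl identifiers with symbols and 2 list symbols only. Each comparison within a line was fitted on its own 4 libraries with edgeR 4.0.16 (R 4.3.3, limma 3.58.1): TMM normalization, filterByExpr with a minimum count of 10, and the quasi-likelihood F test with 2 residual degrees of freedom. P-values were adjusted by Benjamini-Hochberg over all genes tested, and an adjusted p under 0.05 was a call. Differences between effects were contrasts of group means over 8 libraries, and scramble levels contrasts over the 16 shRNA libraries. The SE is the log2 difference divided by the root of F. CPM was the count scaled to the library total. Levels per kilobase used the union exon length of GENCODE 29. Likeness was Pearson's r of log2(CPM + 1), with genes averaging at least 5 CPM, centred within each line. The fits were run on simulated counts with 1 fixed spread for all genes, for shCSN5 in LNCaP and C4-2 and CSN5i-3 in LNCaP. Set log2 changes of -1 or 1 were recovered in 84% to 96% of genes, and those of -2 or 2 in 98% to 100%. The real spread between the libraries of a group ran from 1.72 to 71.3 in chi-square per gene. The simulation therefore does not show how the fits perform on these data.

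The members, the gene lists and the tests were chosen with earlier results of these data known. All 10 members are named; from the other lists the rule takes the 1 or 2 genes of smallest adjusted p in each comparison. Not every such gene is printed, and a gene so named in 1 comparison may be given in the others too, a choice made after its values were seen. Alternatives were scaling to total counts, no filter on low counts, DESeq2 1.42.0, a replicate block, a spread shared by all groups of a table, and each library left out in turn. A fit with a library left out holds 1 library in that group and takes its spread from the other groups. Crossed replicate numbers and summing the 2 RBL1 identifiers were added after seeing the data. Libraries were not treated as paired, since no label ties same-numbered libraries to one culture or day. The lowest member values rest on 6 to 10 counts in a library, where counting error is large.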

Additional observations from a re-analysis of the deposited data

Results flagged for a closer look

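The values below are differences between 2 log2 changes that passed an adjusted p under 0.05 in edgeR, each a test of the difference itself. Not all held with a library left out, as given with each result above. With replicate number as a block, 2 members were called for CSN5i-3 LNCaP minus 22Rv1 (4.4% of all genes). For CSN5i-3 minus shCSN5 in 22Rv1 the block gave 0 (0.112% of all genes). Between lines with shCSN5, PC3 minus LNCaP gave 2.82 for E2F1, 2.72 for E2F2, 3.20 for E2F7, 3.06 for E2F8, 2.89 for RBL1 and -0.80 for RBL2, and 22Rv1 minus C4-2 gave -0.56 for RBL2. Between lines with CSN5i-3, LNCaP minus 22Rv1 gave -0.96 for E2F1, -1.72 for E2F2, -0.98 for E2F5, -0.76 for E2F7 and -2.22 for E2F8.

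Between CSN5i-3 and shCSN5 in one line, LNCaP gave -1.29 for E2F8 and -1.22 for RBL2. In 22Rv1 the differences were -1.46 for E2F1, -0.80 for E2F7 and -0.92 for E2F8. In PC3 they were -1.52 for E2F1, -2.87 for E2F2, 0.72 for E2F4, 1.45 for E2F7 and -2.12 for E2F8. The experiments differ also in control and table, and these cannot be told apart from the agent.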

How the results depend on the processing

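Over all results and alternatives, 1673 kept their direction and their side of the threshold, 100 lost a call, 66 gained one and 65 changed sign. The shared spread was not run for the inhibitor tables, which hold 4 libraries of 1 comparison each. The count of called members moved as follows, and the cause was not tested. For shCSN5 in PC3 (1 called) it was 0 with total counts, 2 without the low-count filter and 3 with the shared spread. The shares of all genes called with total counts and with the shared spread are not given here, so nothing is read from these counts. For CSN5i-3 minus shCSN5 in 22Rv1 (3 called) it was 5 without the filter, where calls over all genes rose as well, so nothing is read from it. With a library left out it was 0 to 1 for 22Rv1 minus C4-2, 2 to 5 for LNCaP minus 22Rv1, and for CSN5i-3 minus shCSN5 1 to 7 in LNCaP, 0 to 6 in 22Rv1 and 4 to 8 in PC3.

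The labels give no pairing by replicate number. With 2 pairs a comparison, the correlation of the deviations of same-numbered libraries was 0.542 for shCSN5 in PC3 and 0.303 in 22Rv1, and ran from -0.642 to -0.00096 in the other 6. With the number as a replicate block the count of members was 10 for shCSN5 in 22Rv1 (6 without it), with 61% of all genes called. For shCSN5 in PC3 the count was 8 (52.9% of all genes). For CSN5i-3 LNCaP minus 22Rv1 it was 2 (4.4%). For CSN5i-3 minus shCSN5 it was 0 in 22Rv1 (0.112%) and 8 in PC3 (60%). In PC3 the block added E2F1, E2F3, E2F4, E2F7, E2F8, RBL1 and RBL2 (adjusted p from 0.000356 to 0.0269) to E2F2, while 52.9% of all genes were called. In 22Rv1 it added E2F4, E2F5, RB1 and RBL2 (adjusted p from 0.00593 to 0.0301; 61% of all genes), and in C4-2 RBL2 lost its call (0.398, adjusted p = 0.104). With crossed numbers as a block, chosen after seeing the data, it was 9 for CSN5i-3 in 22Rv1 (5 without it). Over all genes, calls for shCSN5 in C4-2 numbered 4754, 3139 without the filter and 7890 with crossed numbers. For shCSN5 in PC3 they numbered 2578, 4273 without the filter and 8180 with the block, and for CSN5i-3 in 22Rv1 4010 and 10422 with crossed numbers. Calls numbered 2262 and with the block 1237 for 22Rv1 minus C4-2, 2888 and 816 for LNCaP minus 22Rv1, 730 and 19 for CSN5i-3 minus shCSN5 in 22Rv1 (2028 without the filter), and 6559 and 10074 in PC3.

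Signs changed, with no call, under total counts for E2F5 with shCSN5 in PC3 (0.037), for PC3 minus LNCaP E2F4 (0.033) and RB1 (0.075), for 22Rv1 minus C4-2 E2F2 (0.094), and for CSN5i-3 minus shCSN5 in PC3 RBL1 (-0.057) and RBL2 (-0.0065). In scramble levels they changed for E2F1 22Rv1 minus C4-2 (0.038), E2F3 22Rv1 minus LNCaP (0.094), E2F1 PC3 minus C4-2 (-0.043), and PC3 minus 22Rv1 E2F1 (-0.081) and E2F8 (-0.125). With the shared spread RB1 in PC3 shCSN5 was -0.020.

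With a library left out, signs changed within these ranges. With shCSN5, RB1 in LNCaP ran from -0.118 to 0.289, in C4-2 E2F4 from -0.364 to 0.056, E2F5 from -0.056 to 0.268 and RB1 from -0.242 to 0.084, and in PC3 E2F5 from -0.193 to 0.080 and RB1 from -0.118 to 0.193. With CSN5i-3 E2F4 in 22Rv1 ran from -0.392 to 0.113. For PC3 minus LNCaP E2F4 ran from -0.294 to 0.211 and RB1 from -0.277 to 0.196. For 22Rv1 minus C4-2 E2F2 ran from -0.169 to 0.111, E2F5 from -0.084 to 0.334, E2F8 from -0.031 to 0.147, RB1 from -0.293 to 0.00025 and RBL1 from -0.046 to 0.167. For CSN5i-3 LNCaP minus 22Rv1 E2F3 ran from -0.190 to 0.111. For CSN5i-3 minus shCSN5, LNCaP E2F1 ran from -0.231 to 0.230 and E2F2 from -0.264 to 0.0029, 22Rv1 RB1 from -0.239 to 0.102, and PC3 RBL1 from -0.122 to 0.242 and RBL2 from -0.036 to 0.261. In scramble levels, PC3 minus LNCaP E2F4 ran from -0.166 to 0.335, 22Rv1 minus C4-2 E2F1 from -0.273 to 0.018 and E2F4 from -0.146 to 0.267, and 22Rv1 minus LNCaP E2F5 from -0.310 to 0.143. PC3 minus C4-2 E2F1 ran from -0.157 to 0.175, E2F2 from -0.211 to 0.022, E2F3 from -0.224 to 0.042 and RBL1 from -0.022 to 0.285, and PC3 minus 22Rv1 E2F1 from -0.037 to 0.312 and E2F8 from -0.049 to 0.178.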
